A study of Homo sapiens with 12 samples.

Results

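The distal part of the long arm of chromosome 4 holds 1317 genes of the deposited gene table with a GENCODE start at or past base 83000000 of GRCh38. Of these, 249 passed 1 CPM (the gene's counts scaled to the library's total of gene counts) in at least 3 of the 12 libraries, and they are described here as the distal 4q genes, out of 60671 genes in the table and 13236 that passed the same filter. The first, COPS4, starts at 83034447 and the last, FRG1, at 189940788, and 221 of the 249 code for protein. The members were chosen by position and CPM, and the stretch was selected on the log2 changes of ΔLEO1 against wild-type cells measured in these same libraries, so the shift of its genes in that comparison is given as a description with no test over the genes. The cells were BJ-5ta, a line of human foreskin fibroblasts immortalized with the telomerase subunit hTERT. Wild-type cells and ΔLEO1 cells, a single clone (clone 13) in which CRISPR-Cas9 was directed at exons 1 and 2 of LEO1, were each grown in medium with 10% serum and for 10 days in 0.1% serum, and each of the 4 groups has 3 poly(A) RNA libraries with added ERCC transcripts, a set of synthetic RNAs. Because every ΔLEO1 library comes from 1 clone, the loss of LEO1 and any other property of that clone cannot be told apart. The labels do not say whether libraries came from separate cultures, so p-values measure only the spread between these libraries.

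LEO1 is a subunit of PAF1C, a complex that travels with RNA polymerase II and takes part in transcription elongation and in the histone marks left along transcribed genes. Genes that lie near each other on a chromosome arm are mostly unrelated in function, but they share a copy number, a replication domain and stretches of chromatin. A shift of a whole arm, with most genes moved by a like amount, therefore looks different in gene-by-gene data from strong changes of a few genes, and the 2 patterns were set side by side. The distal 4q genes include growth factors (FGF2, VEGFC, PDGFC), the endothelin receptor EDNRA, matrix and secreted proteins, metabolic enzymes, 2 ribosomal proteins (RPL34, RPS3A) and histone H2AZ1.

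Gene counts per library ran from 26240632 to 45315560 and ERCC transcripts took 0.6251% to 3.2433% of counts. LEO1 (ENSG00000166477), the targeted gene, stood at 20.4 to 30.5 CPM in the 6 wild-type libraries and at 0.661 to 1.45 CPM in the 6 ΔLEO1 libraries. All 10 fibroblast markers examined were over 1 CPM in every library. The summed level of 10 markers of epithelial, endothelial, leukocyte and muscle cells was 1.31 to 1.86 CPM in wild-type libraries and 7.65 to 12.3 CPM in ΔLEO1 libraries, mostly PTPRC and, in ΔLEO1 library 6, MYH11 at 8.82 CPM, while 7 of the 10 stayed under 1 CPM everywhere and KRT5 was at 0 in the wild type. The part of these markers in the results was not tested. In bulk RNA, fewer cells of a type and less RNA per cell cannot be told apart. In each group the highest-numbered library stood apart from the other two: the chi-square of counts per gene was 59.6 to 129 against them, and 2.87 to 11.1 between the other two. Results are therefore also given without those 4 libraries. Such fits keep only the similar libraries of each group, so their p-values and calls measure only the small spread between these.

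Changes are log2 fold changes from a single edgeR fit to the 12 libraries. They were scaled to the ERCC transcripts, on which scale the median of all tested genes was 0.35 higher in ΔLEO1 cells in 10% serum and 0.27 higher in 0.1% serum. A change called relative below is the change on the ERCC scale less that median. A gene was called when its Benjamini-Hochberg adjusted p over all tested genes was under 0.05 in edgeR's quasi-likelihood test, and the calls were also made with library sizes set by TMM (trimmed mean of M-values) on the genes themselves.

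The distal 4q genes were shifted downward in ΔLEO1 cells as a group, by an amount that varied from gene to gene. Their median relative change was −0.40, a fold of 0.760, in 10% serum, and −0.44, a fold of 0.735, in 0.1% serum. Of the 249 genes, 183 (73.5%) lay below the median of all genes in 10% serum and 203 (81.5%) in 0.1% serum. The 22 other chromosomes had medians between −0.08 and 0.11 in 10% serum and between −0.06 and 0.11 in 0.1% serum. The 221 tested genes of chromosome 4 that start before the position limit had medians of −0.04 and −0.09.

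**Figure D1:**
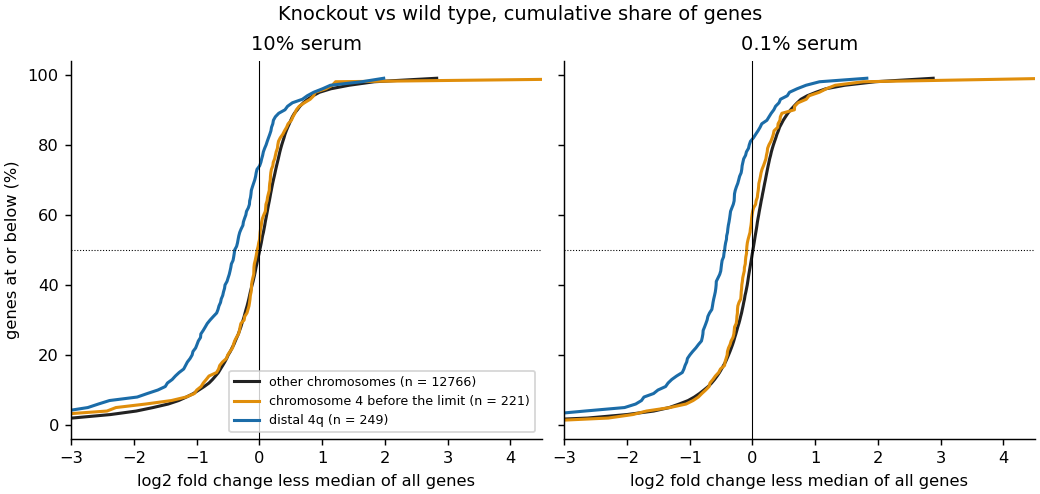
Cumulative share of genes (percent, vertical axis) against the log2 fold change of ΔLEO1 against wild type less the median of all tested genes (horizontal axis), for 10% and 0.1% serum, with a line each for the 249 distal 4q genes, 221 genes of chromosome 4 before the limit and 12766 genes of other chromosomes. The distal 4q line is displaced to the left at its middle (medians −0.40 and −0.44) and stays to the left in its upper part. At 90% of genes it stands at 0.41 in 10% serum and 0.34 in 0.1% serum, against 0.60 and 0.61 on other chromosomes. At 95% it stands at 0.86 and 0.59, against 0.96 and 1.01.

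The shift was neither a fixed step for every gene nor limited to a few genes. The interquartile range of the distal 4q genes ran from −0.94 to 0.02 in 10% serum, a width of 0.963 against 0.655 over all tested genes, and from −0.80 to −0.15 in 0.1% serum, a width of 0.648 against 0.555. Within 1 log2 unit of the median of all genes lay 181 (72.7%) of them in 10% serum, against 85.4% of all tested genes, and 192 (77.1%) in 0.1% serum, against 87.5%. More than 1 log2 unit below lay 57 genes (22.9%, against 9.89%) and 50 genes (20.1%, against 7.49%). More than 1 log2 unit above lay 11 genes (4.42%, against 4.71%) and 7 genes (2.81%, against 5.05%). The excess was thus in the lower tail, while the upper tail held about the share seen over all genes or less.

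Leaving out the strongest genes moved the median little. In either serum, 24 distal 4q genes lay more than 2 log2 units from the median, 21 of them below and 3 above (C4orf54, RPL7AP28 and AGA-DT), and without these 24 the medians were −0.34 and −0.41. The 43 genes next to them along the chromosome had medians of −0.47 and −0.43. The 217 and 226 genes that were not called on the ERCC scale had medians of −0.35 and −0.42, and the 126 and 107 genes called with neither scaling had medians of −0.12 and −0.16. These subsets were formed by the same changes that they describe, so they show the shape of the distribution only.

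Genes with high RNA levels were shifted too. The 108 genes with a mean of 20 CPM or more had median relative changes of −0.30 and −0.41, against 0.03 in both sera over all tested genes at that level. The 84 genes between 5 and 20 CPM had medians of −0.36 and −0.46. The 57 genes under 5 CPM had medians of −0.83 and −0.62, against −0.13 and −0.11 over all tested genes at that level. The filter bears on this count, since 22 of the 249 genes passed 1 CPM in fewer than 3 ΔLEO1 libraries and 6 in fewer than 3 wild-type libraries, so that these passed through the genotype in which they are higher. Over the 222 genes that passed 1 CPM in at least 3 libraries of both genotypes the medians were −0.34 and −0.43.

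Along the chromosome, medians were lower past the position limit than before it, unevenly from window to window. In the last 5 Mb before the limit the median of 18 genes was −0.03 in 10% serum and −0.02 in 0.1% serum, and in the first 5 Mb past it the median of 16 genes was −0.55 and −0.54. In the next 5 Mb the median of 11 genes was −0.08 and −0.35. Every one of the 11 windows of 10 Mb past the limit had a negative median in both sera, from −0.80 to −0.16 in 10% serum and from −0.64 to −0.17 in 0.1% serum, and 10 of the 11 were under −0.2. None of the 9 windows before the limit was under −0.2 in either serum. Of 270 windows on other chromosomes, 15 (5.56%) and 8 (2.96%) were under −0.2, with the lowest at −0.38 and −0.36. The stretch was selected on these same changes, so its contrast with the other windows is a description only.

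The depth of the shift was uneven between windows. The lowest median, −0.80 and −0.64, was that of the 17 genes from 70 to 80 Mb past the limit, which include PDGFC, CTSO and GASK1B. The smallest shift, −0.16 and −0.17, was that of the 15 genes from 40 to 50 Mb past the limit, which include SPRY1, PLK4 and RPL7AP28. The longest unbroken run of genes below the median of all genes was 18 genes from OTUD4 to FBXW7 in 10% serum and 20 genes from ANAPC10 to FBXW7 in 0.1% serum, against 8 and 9 genes before the limit. With windows of 5 Mb the highest median past the limit was above 0, at 0.18 and 0.10. Running medians of 21 genes were negative at 238 of 239 places in 10% serum and at all 239 in 0.1% serum.

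**Figure D2:**
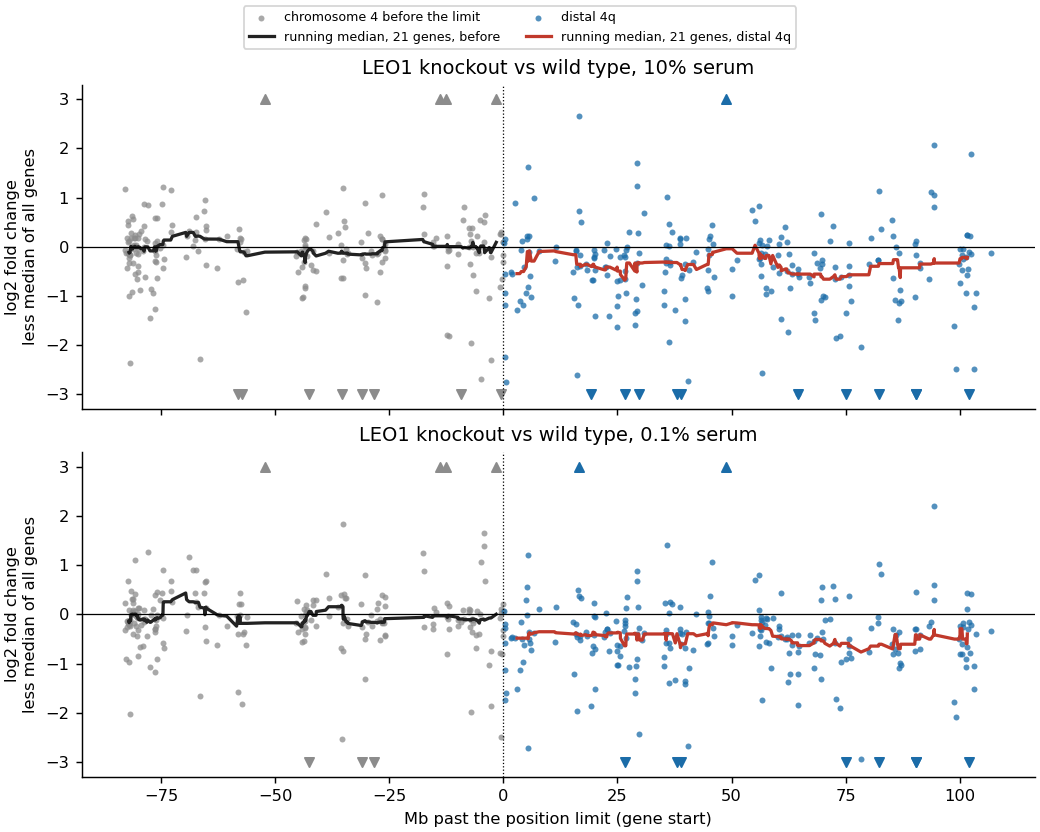
Log2 fold change of ΔLEO1 against wild type less the median of all tested genes (vertical axis) against the distance of the gene start from the position limit in Mb (horizontal axis), for 10% serum above and 0.1% serum below. Points are genes, grey before and blue past the limit, triangles at ±3 are genes beyond that value (12 distal 4q genes in 10% serum and 10 in 0.1% serum), and lines are running medians of 21 genes, which stay below 0 past the limit except at 1 place in 10% serum.

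The same shift was seen in each ΔLEO1 library. Here the log2 CPM of each gene was taken less its mean over the wild-type libraries of the same serum and less the library's median over the tested genes. The median over the distal 4q genes was −0.34, −0.32 and −0.39 in the 3 ΔLEO1 libraries in 10% serum, or −0.35 ± 0.03 (SD, n = 3). In 0.1% serum it was −0.59, −0.54 and −0.36, or −0.49 ± 0.12 (SD, n = 3). The wild-type libraries, which also set the zero, ranged from −0.07 to 0.05. All 6 ΔLEO1 libraries lay below all 6 wild-type libraries, and ΔLEO1 library 12, which stands apart from the other two of its group, was nearest to them in 0.1% serum.

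**Figure D3:**
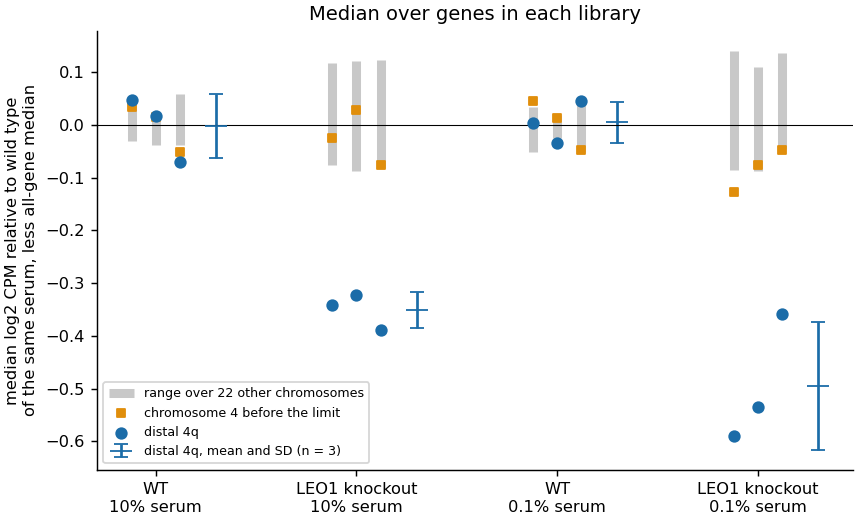
Median over genes of log2 CPM relative to the wild type of the same serum, less the median of all tested genes (vertical axis), for each of the 12 libraries (horizontal axis, 3 per group). Blue points are the distal 4q genes, crosses their mean with SD (n = 3), orange squares chromosome 4 before the limit, and grey bars the range of the 22 other chromosomes; the distal 4q points of ΔLEO1 libraries sit between −0.59 and −0.32.

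The share of all gene counts that came from the distal 4q genes was correspondingly lower. Their CPM summed to 14640 ± 224 in wild-type and 12240 ± 713 in ΔLEO1 libraries in 10% serum, and to 13120 ± 358 and 10000 ± 951 in 0.1% serum (SD, n = 3 each). SYNPO2, which codes for an actin-bundling protein and was higher in ΔLEO1 cells, was the most strongly counted of the genes that moved the other way. Without SYNPO2 the sums in 10% serum were 13870 ± 165 and 10720 ± 191, and those in 0.1% serum 12830 ± 357 and 9278 ± 817.

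On the ERCC scale, 22 distal 4q genes (8.84%) fell and 10 (4.02%) rose in ΔLEO1 cells in 10% serum, where 4.20% of all tested genes were called lower and 3.81% higher. In 0.1% serum 18 (7.23%) fell and 5 (2.01%) rose, where 3.41% of all tested genes were called lower and 3.49% higher. With TMM on the genes, 105 (42.2%) were called lower and 18 (7.23%) higher in 10% serum, against 21.4% and 17.9% of all tested genes, and 131 (52.6%) lower and 10 (4.02%) higher in 0.1% serum, against 17.3% and 15.1%. The CPM of the groups did not overlap for 130 genes that were lower and 30 that were higher in 10% serum (all tested genes 29.6% and 29.8%), and for 131 and 14 genes in 0.1% serum (21.8% and 19.7%). The stretch was chosen with this comparison known, so nothing is read from these shares. Without the 4 libraries that stand apart the median changes were −0.39 and −0.55, and the ERCC-scale counts were 32 lower and 14 higher in 10% serum and 102 lower and 3 higher in 0.1% serum. When the 2 similar libraries of each group were summed into 1, 11 fell and 3 rose in 10% serum, and 8 fell and 3 rose in 0.1% serum. Shares of all tested genes are not given for libraries left out or summed, so nothing particular to distal 4q is read from those counts.

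The calls differed in how firmly they held. In 10% serum, 14 of the 22 genes that fell and 3 of the 10 that rose stayed called with any 1 of the 12 libraries left out, and in 0.1% serum 11 of 18 and 2 of 5. Among the strongly lowered genes SLC25A4, GASK1B, CPE, NDNF, CFI and HAND2 stayed called throughout in both sera. All of these were under 1 CPM in every ΔLEO1 library of 10% serum. They passed the filter chiefly through the wild-type libraries, in which they are higher, so the filter itself favoured a fall. Values of the genes below are CPM in the 3 libraries of each group in order of library number.

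**Figure D4:**
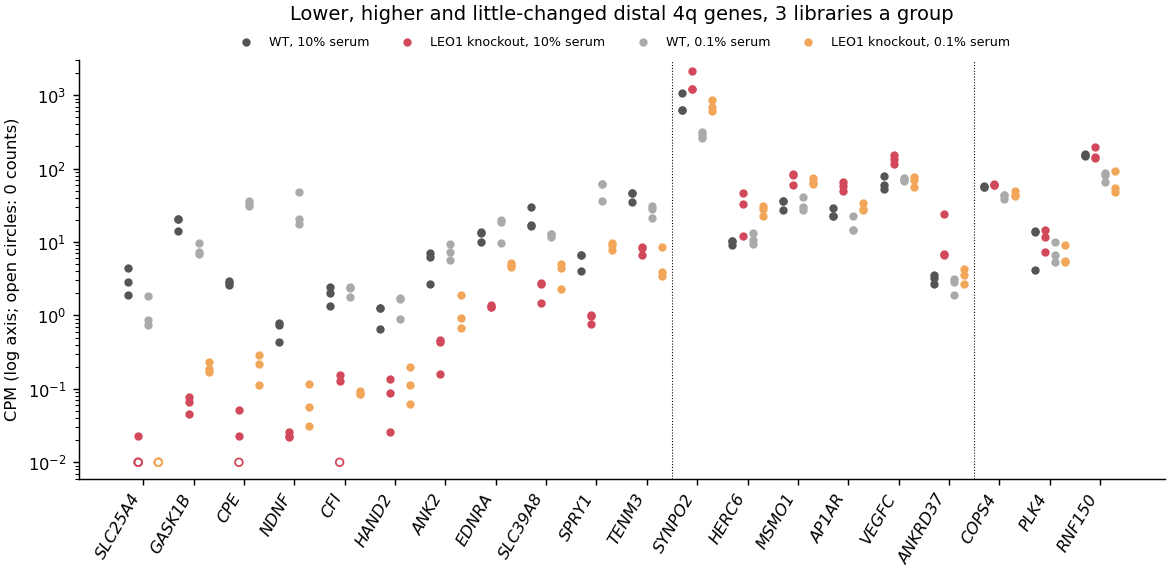
CPM of 20 distal 4q genes (log axis, vertical) in each of the 12 libraries, with 11 genes that were lower, 6 that were higher and 3 that were little changed in ΔLEO1 cells from left to right, separated by dotted lines. Open circles at the bottom stand for 0 counts and mark no level, as for SLC25A4 in the ΔLEO1 libraries in 0.1% serum. For GASK1B and CPE the ΔLEO1 points with counts lie over 1 log10 unit below the wild-type points in both sera.

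GASK1B (ENSG00000164125, chromosome 4 of GRCh38, 158124474 to 158173318), which codes for a Golgi-associated protein, had the smallest adjusted p in 10% serum. Its level was 20.4, 20.3 and 14 CPM in wild-type and 0.0773, 0.0662 and 0.0450 CPM in ΔLEO1 libraries in 10% serum, from 2 or 3 counts in each of the latter. The ratio of the summed levels was 292-fold (exact 95% interval 148 to 678, counting error only), and the fitted log2 change, whose size at such counts depends on the prior count of the fit, was −7.89 ± 0.76 (SE, adjusted p = 1.85e-22). In 0.1% serum it was 9.71, 7.32 and 6.81 CPM against 0.230, 0.184 and 0.170 CPM, a log2 change of −5.19 ± 0.66 (adjusted p = 7.14e-13). The groups were far apart in both sera. A share of 13.2% of its exon bases is overlapped by the antisense gene FAM198B-AS1, and the strand setting of the counting is not stated.

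SLC25A4 (ENSG00000151729, 185143241 to 185150382) codes for the adenine nucleotide translocase of heart and muscle mitochondria, which exchanges ADP and ATP across the inner membrane. It had 2.82, 1.91 and 4.49 CPM in wild-type cells in 10% serum and no count in 2 ΔLEO1 libraries and 1 count in the third. In 0.1% serum it had 0.743, 0.876 and 1.85 CPM in wild-type and no count in any ΔLEO1 library, which makes it at least 13.2-fold lower when 3 counts per library are taken as the floor. The adjusted p was 1.31e-14 in 10% and 2.08e-10 in 0.1% serum. CFAP97, a protein of cilia and the next of the 249 genes along the chromosome, was at 78.4, 74.4 and 61.6 CPM in wild-type and at 66.9, 73.9 and 66.5 CPM in ΔLEO1 cells in 10% serum, so that a gene without detectable RNA in most ΔLEO1 libraries and one with overlapping groups lie side by side.

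CPE (ENSG00000109472, 165361194 to 165498320), which codes for carboxypeptidase E, a processing enzyme of peptide hormones and neuropeptides, was at 2.58, 2.96 and 2.81 CPM in wild-type cells in 10% serum and at 0.0516, 0 and 0.0225 CPM in ΔLEO1 cells. In 0.1% serum it was at 30.6, 35.8 and 34.3 CPM in the wild type and at 0.287, 0.215 and 0.113 CPM in ΔLEO1 cells. CPE rose in 0.1% serum in the wild type (log2 change 2.55 ± 0.55, adjusted p = 0.000136), and every ΔLEO1 library in 0.1% serum was still below every wild-type library in 10% serum. Its neighbour MSMO1, the sterol-C4-methyl oxidase of cholesterol synthesis, went the other way. MSMO1 had 36.5, 36.3 and 27.7 CPM in wild-type and 83.1, 83.0 and 59.4 CPM in ΔLEO1 cells in 10% serum (log2 change 1.49 ± 0.49, adjusted p = 0.0302). In 0.1% serum MSMO1 was at 27.2, 29.9 and 40.8 against 65.7, 73.5 and 62.4 CPM, groups that do not overlap, with an adjusted p of 0.0949 on the ERCC scale and 0.000905 with TMM on the genes. The call of MSMO1 in 10% serum was lost without any of 5 libraries, with the largest adjusted p at 0.273 without wild-type library 3.

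HERC5 and HERC6 form the third such pair. Both code for HERC-family proteins, and HERC5 is the main ligase that attaches the interferon-induced modifier ISG15. HERC6 was at 10.4, 10.4 and 9.10 CPM in wild-type and at 33.2, 46.9 and 12 CPM in ΔLEO1 cells in 10% serum, a log2 change of 1.98 ± 0.51 (adjusted p = 0.00201), and rose by 1.48 ± 0.50 in 0.1% serum (adjusted p = 0.0460). HERC5 was at 4.63, 4.31 and 5.94 CPM in wild-type and at 0.719, 0.646 and 0.822 CPM in ΔLEO1 cells in 0.1% serum, a log2 change of −2.45 ± 0.58 (adjusted p = 0.000774). In 10% serum HERC5 was at 1.81, 1.89 and 1.58 against 0.902, 1.37 and 0.788 CPM, and was not called on the ERCC scale. HERC6 was thus higher while HERC5 was lower in every ΔLEO1 library of 0.1% serum. The HERC6 call was lost without 1 library in 10% serum, with an adjusted p of 0.0612 without ΔLEO1 library 5. In 0.1% serum it was lost without any 1 of 10 libraries, with the largest adjusted p at 0.347 without wild-type library 7. On the ERCC scale the HERC6 level of ΔLEO1 library 6 in 10% serum lay within the range of the wild-type libraries.

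These 3 neighbouring pairs, named with the exception of CPE, MSMO1 and HERC6 after their values were seen, are cases in which neighbouring genes had different changes, and their promoters are shown for that reason. Each run is the 250 bases before the gene's start as RefSeq gives it on GRCh38.p14, 5′ to 3′ on the gene's strand, with the CG dinucleotides in capitals. The starts lie 60.7 kb apart for SLC25A4 and CFAP97, 51.3 kb for CPE and MSMO1 and 78.3 kb for HERC6 and HERC5, and those of CPE and CFAP97 lie inside the longer GENCODE span.
SLC25A4, chr4:185143016-185143265, plus strand: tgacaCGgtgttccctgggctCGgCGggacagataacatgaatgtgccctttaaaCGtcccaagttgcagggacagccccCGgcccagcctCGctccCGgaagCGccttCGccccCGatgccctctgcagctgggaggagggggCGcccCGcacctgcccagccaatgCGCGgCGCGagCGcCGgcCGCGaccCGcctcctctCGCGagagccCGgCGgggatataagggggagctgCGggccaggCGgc
CFAP97, chr4:185204001-185204250, minus strand: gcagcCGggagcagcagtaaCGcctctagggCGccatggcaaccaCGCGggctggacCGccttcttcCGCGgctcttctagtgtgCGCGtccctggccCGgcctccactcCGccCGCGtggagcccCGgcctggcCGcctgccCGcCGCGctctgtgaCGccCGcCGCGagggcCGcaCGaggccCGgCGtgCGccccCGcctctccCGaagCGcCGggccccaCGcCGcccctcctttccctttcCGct
CPE, chr4:165378758-165379007, plus strand: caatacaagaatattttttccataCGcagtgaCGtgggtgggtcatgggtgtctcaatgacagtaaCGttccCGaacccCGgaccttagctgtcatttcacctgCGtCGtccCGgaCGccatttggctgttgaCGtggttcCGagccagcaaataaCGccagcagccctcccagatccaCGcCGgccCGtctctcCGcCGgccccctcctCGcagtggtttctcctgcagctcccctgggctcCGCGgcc
MSMO1, chr4:165327419-165327668, plus strand: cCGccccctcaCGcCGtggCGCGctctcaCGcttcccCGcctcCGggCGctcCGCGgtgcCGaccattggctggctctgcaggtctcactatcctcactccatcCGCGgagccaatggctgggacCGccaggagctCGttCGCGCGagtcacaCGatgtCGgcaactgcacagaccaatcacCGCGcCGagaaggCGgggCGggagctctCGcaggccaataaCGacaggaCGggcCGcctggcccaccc
HERC6, chr4:88378602-88378851, plus strand: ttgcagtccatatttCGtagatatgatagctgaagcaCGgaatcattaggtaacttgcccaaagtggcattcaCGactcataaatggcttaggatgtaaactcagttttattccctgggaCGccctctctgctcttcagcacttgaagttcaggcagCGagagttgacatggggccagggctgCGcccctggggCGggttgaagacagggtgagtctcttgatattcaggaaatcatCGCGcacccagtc
HERC5, chr4:88456869-88457118, plus strand: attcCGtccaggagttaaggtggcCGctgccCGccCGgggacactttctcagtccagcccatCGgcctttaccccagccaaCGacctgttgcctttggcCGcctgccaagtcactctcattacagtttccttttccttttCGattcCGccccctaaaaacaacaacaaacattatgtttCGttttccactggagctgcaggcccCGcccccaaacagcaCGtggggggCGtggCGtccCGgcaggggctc

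All but HERC6 had 15 or more CG dinucleotides in these 250 bases. SLC25A4 had 27 and CFAP97 35, CPE 20 and MSMO1 30, and HERC6 9 and HERC5 15, so that in the pairs of SLC25A4 and of CPE the lowered gene had fewer, and in the HERC pair the lowered gene had more. Of the distal 4q genes, 200 had a promoter in the RefSeq table, with a median of 20 CG (interquartile range 11.8 to 26), against 10 (3 to 23) over all 27305 genes of the table. These groups are unlike, since the distal 4q genes had passed the CPM filter and mostly code for protein, while the table was taken whole. The 30 of them that lay more than 1 log2 unit below the median of all genes in both sera had a median of 15, and the 140 within 1 log2 unit in both sera a median of 21.5.

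Short motifs were searched on both strands of the same windows. The TATA box core TATAAA was in 11.2% of all promoters and 6.5% of the distal 4q promoters, and in none of the 6 shown. The box CCAAT was in 33.0% and 34%, and in those of SLC25A4 and MSMO1. The sterol-response letters TCACNCCAC were in 0.868% and 0.5%, and in none of the 6. None of the 3 motifs contains another.

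Among secreted and matrix proteins, NDNF, a neuron-derived secreted factor, was at 20.6, 17.7 and 47.5 CPM in wild-type cells in 0.1% serum and at 0.115, 0.0307 and 0.0567 CPM in ΔLEO1 cells, a log2 change of −8.39 ± 0.78 (adjusted p = 1.56e-23). In 10% serum, where it was at 0.795, 0.740 and 0.433 CPM in the wild type, each ΔLEO1 library held 1 count. CFI, complement factor I, the protease that cleaves C3b and C4b, was at 2.03, 2.45 and 1.33 CPM against 0.129, 0.154 and 0 CPM in 10% serum (log2 change −4.04 ± 0.69, adjusted p = 2.77e-07). The groups of both genes were separate in both sera. CFI shares 32.0% of its exon bases with a gene on the same strand, AC126283.2, so its count is uncertain. TENM3, a teneurin of cell-to-cell contacts, was at 47.2, 45.9 and 34.7 CPM against 8.58, 8.30 and 6.66 CPM in 10% serum (log2 change −2.12 ± 0.51, adjusted p = 0.000757) and fell by 1.81 on the log2 scale in 0.1% serum, where the adjusted p of 0.00726 became 0.166 without ΔLEO1 library 10.

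The enzymes CTSO and HPSE were also lower. CTSO, a cysteine protease of the cathepsin family, was at 47.6, 44.9 and 32.6 CPM against 11.8, 12.9 and 11.2 CPM in 10% serum and at 66.9, 66.6 and 60.7 CPM against 18.5, 22.3 and 19.8 CPM in 0.1% serum, and its call was lost without any 1 of 7 libraries in 10% serum and of 9 in 0.1% serum. HPSE, the heparanase that cuts heparan sulphate chains of the matrix, was at 4.91, 5.26 and 8.80 CPM against 1.39, 1.17 and 1.19 CPM in 10% serum (adjusted p = 0.0106, and 0.128 without ΔLEO1 library 5). FAT1, a giant cadherin and the most abundant of the matrix and adhesion genes together with PCDH10, was at 1702, 1635 and 1722 CPM against 803, 758 and 1154 CPM in 10% serum. FAT1 was not called on the ERCC scale but was called lower with TMM on the genes (adjusted p = 0.0141). PCDH10, a protocadherin, was at 816, 739 and 556 CPM against 555, 512 and 540 CPM, groups that do not overlap, and was called lower with TMM on the genes in both sera (adjusted p = 0.0347 and 0.0182).

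Among growth factors and their signalling partners, EDNRA, the endothelin A receptor, was at 13.8, 13.3 and 9.97 CPM against 1.37, 1.30 and 1.28 CPM in 10% serum, a log2 change of −2.93 ± 0.56 (adjusted p = 6.44e-06). SPRY1, an inhibitor of receptor tyrosine kinase signalling, was at 60.9, 61.0 and 35.8 CPM against 9.57, 9.13 and 7.90 CPM in 0.1% serum, a log2 change of −2.40 ± 0.53 (adjusted p = 0.000203), and fell by 2.38 in 10% serum. PDGFC, a platelet-derived growth factor, was at 114, 104 and 70.1 CPM against 26.4, 26.9 and 26.1 CPM in 0.1% serum (log2 change −1.64 ± 0.49, adjusted p = 0.0155, and 0.153 without wild-type library 8). Its call was lost without any 1 of 3 libraries in 0.1% serum and of 7 in 10% serum. In each of these 3 the ΔLEO1 libraries were closely grouped and all below the wild type. FSTL5, a follistatin-like secreted protein, was at 24.2, 25.2 and 17.0 CPM against 2.24, 2.77 and 3.57 CPM in 0.1% serum (log2 change −2.66 ± 0.56, adjusted p = 7.04e-05 with edgeR and 0.160 with DESeq2), and was under 1 CPM in all libraries in 10% serum. SMAD1, a transducer of BMP signals, shows a gene that passed on 1 scale only. It was at 22.2, 21.5 and 24.8 CPM against 7.35, 7.30 and 5.79 CPM in 10% serum, with an adjusted p of 0.0781 on the ERCC scale and 1.11e-06 with TMM on the genes.

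The abundant FGF2 and PTPN13 differed between themselves. FGF2, basic fibroblast growth factor, was at 286, 266 and 471 CPM against 226, 258 and 288 CPM in 10% serum and at 543, 538 and 218 CPM against 296, 401 and 240 CPM in 0.1% serum, with overlapping groups in both. PTPN13, a large tyrosine phosphatase, was at 219, 227 and 183 CPM against 103, 97.9 and 99.99 CPM in 10% serum and at 304, 277 and 244 CPM against 97.5, 105 and 151 CPM in 0.1% serum. PTPN13 was called lower with TMM on the genes in both sera (adjusted p = 0.000107 and 6.64e-05) and on the ERCC scale in neither.

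Among transporters and enzymes, SLC39A8, a zinc and manganese importer, was at 16.5, 17.1 and 30.3 CPM against 2.76, 2.69 and 1.49 CPM in 10% serum, a log2 change of −2.73 ± 0.55 (adjusted p = 2.16e-05). MGST2, a microsomal glutathione transferase, was at 10.7, 10.9 and 10.4 CPM against 2.01, 1.99 and 1.37 CPM in 10% serum (adjusted p = 0.00112). In both genes every ΔLEO1 library was below every wild-type library. CYP4V2, a fatty acid hydroxylase, was at 14.8, 13.3 and 11.7 CPM against 2.55, 2.91 and 1.76 CPM in 10% serum (adjusted p = 0.00156, and 0.0549 without ΔLEO1 library 6). GPAT3, an acyltransferase at the start of glycerolipid synthesis, was at 2.41, 2.76 and 1.30 CPM against 0.335, 0.463 and 0.225 CPM in 10% serum (adjusted p = 0.00168, and 0.0556 without ΔLEO1 library 6). ADH5, the formaldehyde-detoxifying alcohol dehydrogenase, and PDE5A, the cyclic GMP phosphodiesterase, were the most abundant of the metabolic list. ADH5 was called lower with TMM on the genes in both sera (relative change −0.41 and −0.46), and PDE5A only in 10% serum (−0.37), with 0.26 in 0.1% serum.

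HAND2, a transcription factor of heart, limb and stromal cells, and its antisense neighbour HAND2-AS1 were both lower. HAND2 was at 1.26, 1.28 and 0.663 CPM against 0.0258, 0.0883 and 0.135 CPM in 10% serum (log2 change −3.44 ± 0.70, adjusted p = 3.47e-05). HAND2-AS1 was at 1.07, 1.23 and 1.20 CPM in wild-type libraries in 10% serum and had no count in the 3 ΔLEO1 libraries, which makes it at least 16.5-fold lower. The pair overlaps on opposite strands over 24.1% of the exon bases of HAND2, and without the strand setting the reads of the overlap cannot be assigned. ANK2, the ankyrin that anchors channels to the membrane skeleton, was at 7.05, 6.23 and 2.65 CPM against 0.464, 0.441 and 0.158 CPM in 10% serum (log2 change −3.64 ± 0.61, adjusted p = 1.30e-07). It fell by 2.16 in 0.1% serum, where the adjusted p of 0.00290 became 0.0810 without ΔLEO1 library 10. USP53, a ubiquitin-protease-like protein of cell junctions, was the most abundant gene that fell, at 498, 474 and 758 CPM against 137, 148 and 154 CPM in 10% serum (adjusted p = 0.0137, and 0.125 without ΔLEO1 library 5).

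The genes that rose on the ERCC scale were fewer, and among them only AP1AR and its divergent transcript were next to each other. With TMM on the genes in the quasi-likelihood test, 2 further neighbours were called higher in 10% serum. These were AGA, next to AGA-DT (adjusted p = 0.0132), and TRMT10A, next to C4orf54 (adjusted p = 0.00585). SYNPO2, the actin-bundling synaptopodin-2, was at 628, 629 and 1055 CPM against 1228, 1198 and 2135 CPM in 10% serum and at 290, 264 and 314 CPM against 607, 693 and 871 CPM in 0.1% serum. Its log2 change of 1.35 ± 0.46 (adjusted p = 0.0399) in 10% serum and of 1.68 ± 0.46 (adjusted p = 0.00595) in 0.1% serum did not hold with every library: the call was lost without any of 8 and of 3 libraries, and without the 4 libraries that stand apart the change in 0.1% serum was 0.84 (adjusted p = 0.196). AP1AR, a regulator of adaptor-protein and actin dynamics, was at 22.4, 22.9 and 29 CPM against 57.3, 65.9 and 49.0 CPM in 10% serum (adjusted p = 0.0180, and 0.123 without wild-type library 2). VEGFC, the growth factor of lymphatic vessels, was at 52.3, 60.5 and 80.0 CPM against 136, 152 and 115 CPM in 10% serum (log2 change 1.47 ± 0.48, adjusted p = 0.0317, and 0.191 without ΔLEO1 library 4). In 0.1% serum VEGFC was at 67.3, 73.9 and 73.0 CPM against 70.4, 77.8 and 56.3 CPM, so that the groups overlap there.

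ANKRD37, a small ankyrin-repeat protein induced in hypoxia, was at 3.51, 2.71 and 3.19 CPM against 6.93, 6.64 and 24.3 CPM in 10% serum. Its size rested on ΔLEO1 library 6: the log2 change of 2.23 ± 0.54 (adjusted p = 0.000927) was 1.58 (adjusted p = 0.113) without it. UFSP2 on the opposite strand covers 35.2% of its exon bases. C4orf54, RPL7AP28 and AGA-DT, named after their values were seen, are at low levels. C4orf54 was at 0.356, 0.179 and 0.281 CPM against 1.65, 1.5 and 2.05 CPM in 10% serum (adjusted p = 6.02e-05). RPL7AP28, a ribosomal protein pseudogene, had no count in any wild-type library and 27 to 54 counts in the ΔLEO1 libraries in 10% serum, at least 12.6-fold higher, but 14% of its 58-base stretches also occur in transcripts of other genes, so its count is uncertain. AGA-DT, a divergent transcript of unknown function, rose in both sera, and its adjusted p in 0.1% serum went from 0.00360 to 0.914 without ΔLEO1 library 12.

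Other genes hardly moved relative to the rest of the genome. COPS4, a subunit of the COP9 signalosome and the first gene past the limit, was at 56.7, 55.4 and 57.4 CPM against 60.4, 61.0 and 59.3 CPM in 10% serum, with relative changes of 0.08 in both sera. PLK4, the kinase of centriole duplication, had relative changes of −0.04 and 0.05, and RNF150, a membrane-bound ring finger protein, of 0.03 and −0.09. ANXA5, the phospholipid-binding annexin, was at 551, 551 and 614 CPM against 601, 608 and 554 CPM in 10% serum, with overlapping groups. In 0.1% serum ANXA5 was at 714, 766 and 817 CPM against 624, 672 and 547 CPM, groups that do not overlap, with a relative change of −0.37 that missed the threshold on both scales (adjusted p = 0.0599 with TMM on the genes).

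The ribosomal proteins had less negative relative changes in 10% than in 0.1% serum. These were −0.13 and −0.54 for RPS3A and −0.20 and −0.64 for RPL34. Neither gene was called with either scaling in the interaction, the test of whether the genotype change differs between the sera. RPS3A was at 262, 289 and 293 CPM against 261, 239 and 269 CPM in 10% serum and at 416, 417 and 423 CPM against 344, 335 and 244 CPM in 0.1% serum. RPL34 was at 178, 188 and 195 CPM against 160, 162 and 166 CPM in 10% serum and at 278, 302 and 308 CPM against 231, 235 and 154 CPM in 0.1% serum. Both were called lower with TMM on the genes in 0.1% serum only (adjusted p = 0.0361 and 0.0265), and 24.6% of the 58-base stretches of RPS3A are shared with other genes, so its count is uncertain. UBE2D3, a ubiquitin-conjugating enzyme, was at 224, 230 and 246 CPM against 199, 212 and 187 CPM in 10% serum, a relative change of −0.23, and was called lower with TMM on the genes in both sera.

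The position limit itself fell between genes with mixed values. Just outside it lay LIN54 (relative changes 0.10 and 0.21), THAP9 (−0.31 and −0.32) and THAP9-AS1 (−0.16 and −0.44), and just inside it COPS4 (0.08 and 0.08), COQ2 (−1.18 and −0.59) and HPSE (−2.24 and −1.74). On the level limit, the third-highest CPM of PLAC8 (0.932) and DDIT4L (0.995) left them out, and that of IRF2-DT (1.03) and UBE2D3-AS1 (1.05) let them in.

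The 9 lists of genes by role, written with earlier results of these data known, held 175 of the 249 genes. Of all tested genes, 4.20% and 3.41% were called lower and 3.81% and 3.49% higher in 10% and 0.1% serum on the ERCC scale, and 21.4% and 17.3% lower and 17.9% and 15.1% higher with TMM on the genes, and nothing particular to a list is read from its counts. The 14 genes of matrix, adhesion and secreted proteases had median relative changes of −1.06 and −0.75 in 10% and 0.1% serum, with 6 and 5 genes that fell and none that rose on the ERCC scale. The 19 growth factors, receptors and signal inhibitors had medians of −0.93 and −0.89, with 18 and 17 genes below the median of all genes, 3 and 4 that fell, and 1 (VEGFC) that rose in 10% serum. These were the lowest medians of the 9 lists. The 30 metabolic enzymes, transporters and mitochondrial proteins had medians of −0.46 and −0.64, with 26 below in both sera, 5 and 2 that fell, and 1 (MSMO1) that rose in 10% serum.

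The other lists lay closer to the rest of the genome in 10% serum than in 0.1% serum. The 15 genes of the cell cycle and DNA replication, such as CCNA2, the cyclin of S phase, and DCTD, a deoxycytidylate deaminase, had medians of −0.04 and −0.19 with no call on the ERCC scale, while 4 and 5 were called lower with TMM on the genes. The 21 genes of translation and RNA processing had medians of −0.06 and −0.33 with no call on the ERCC scale, while 3 and 10 were called lower and 2 and 1 higher with TMM on the genes. The 21 genes of chromatin and transcription had medians of −0.16 and −0.55, with HAND2 alone called on the ERCC scale and 6 and 14 called lower with TMM on the genes. The 2 most abundant of these, SETD7, a lysine methyltransferase, and SMARCA5, an ISWI chromatin remodeller, had relative changes of −0.59 and −0.33, and of 0.05 and −0.29. The difference between sera of these lists was not tested.

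In the remaining 3 lists few genes passed on the ERCC scale. The 14 genes of actin, sarcomere and cytoskeleton had medians of −0.19 and −0.53, with ANK2 lower and SYNPO2 higher in both sera. The 20 genes of innate immunity, cell death and ubiquitin had medians of −0.24 and −0.48, with USP53 lower and HERC6 higher in 10% serum and HERC5 lower and HERC6 higher in 0.1% serum. The 21 genes of the secretory pathway had medians of −0.26 and −0.34 and no call on the ERCC scale. With TMM on the genes 9 of them were called lower in each serum, SEC24D, a coat protein of vesicles leaving the endoplasmic reticulum, among them in both, and PGRMC2, a haem-binding membrane protein, was called higher in 0.1% serum.

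The comparisons in the 2 sera share no library, and the values of the genes in them were alike. Across the 249 genes the relative changes in 10% and 0.1% serum had a Pearson r of 0.905 and a Spearman rho of 0.766, against 0.881 and 0.744 across all tested genes. Genes are not independent replicates, and the same clone stands in both comparisons. In both sera 171 genes (68.7%, against 38.8% of all tested genes) lay below the median of all genes, 34 lay above in both, and 44 on opposite sides. Among the 171 genes within 1 log2 unit of the median in both sera, r was 0.479, against 0.624 among the 10906 tested genes within the same limits.

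Of the genes that fell on the ERCC scale, 16 fell in both sera, 72.7% of the 22 of 10% serum and 88.9% of the 18 of 0.1% serum, against 64.6% and 79.4% for all tested genes that were called lower. The 5 genes that rose in 0.1% serum rose in 10% serum as well. With TMM on the genes, 87 were called lower in both sera, 82.9% of the 105 and 66.4% of the 131, against 63.2% and 78.2% for all tested genes. A further 2 genes, ARHGAP24 and ARSJ, were called higher in 10% serum and lower in 0.1% serum.

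**Figure D5:**
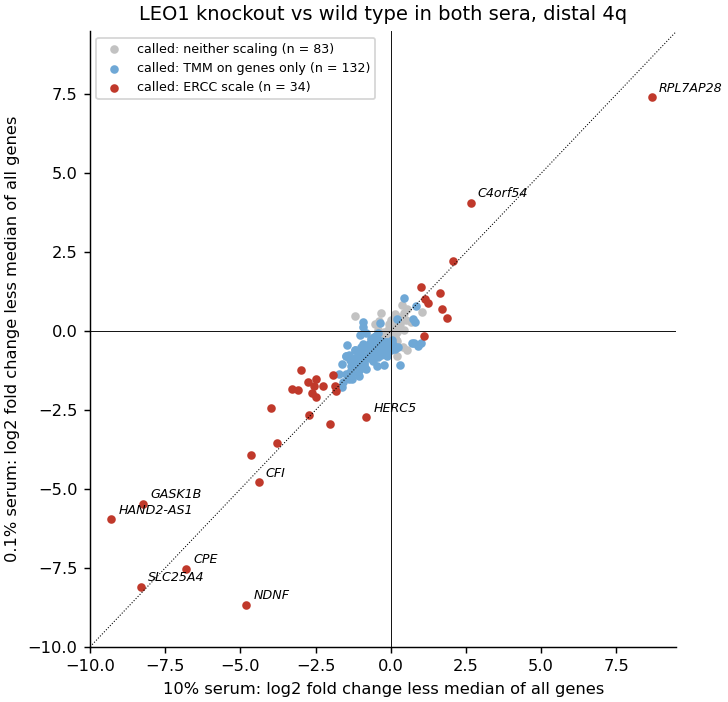
Log2 fold change of ΔLEO1 against wild type less the median of all tested genes in 10% serum (horizontal axis) and in 0.1% serum (vertical axis) for the 249 distal 4q genes. Red points (34) were called on the ERCC scale in either serum, blue points (132) with TMM on the genes only and grey points (83) with neither; most points lie at the lower left near the dotted line of equal change.

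No distal 4q gene was called in the interaction of genotype and serum on the ERCC scale with edgeR's quasi-likelihood test, its likelihood ratio test or DESeq2. At an unadjusted p under 0.05 in the quasi-likelihood test, 6 had a lower change in 0.1% than in 10% serum and 2 a higher one. These were 2.41% and 0.803%, against 0.725% and 1.39% of all tested genes. With TMM on the genes 5 had a lower change in 0.1% than in 10% serum and 3 a higher one (2.01% and 1.20%, against 0.453% and 1.55% of all tested genes). ARHGAP24 was at 18.6, 19.8 and 19.7 CPM against 33.7, 37.7 and 37.5 CPM in 10% serum and at 51.1, 53.9 and 43.6 CPM against 37.2, 39.8 and 34.6 CPM in 0.1% serum. ARHGAP24 was thus above the wild type in every ΔLEO1 library of one serum and below it in every ΔLEO1 library of the other.

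Distal 4q genes were also lower in 0.1% than in 10% serum on the ERCC scale, on which most of the genome was lower. In wild-type cells 76 genes (30.5%, against 27.0% of all tested genes) fell and 5 (2.01%, against 0.831%) rose in 0.1% serum, and in ΔLEO1 cells 126 (50.6%, against 36.4%) fell and 4 (1.61%, against 0.793%) rose. The serum comparisons share their libraries with the comparisons of genotype. Relative to the median of all genes, the median serum change of the distal 4q genes was −0.03 in the wild type, within the range of the other chromosomes (−0.08 to 0.11), and −0.16 in ΔLEO1 cells, where the other chromosomes ran from −0.07 to 0.05. With TMM on the genes 44 were called lower and 34 higher in the wild type (all tested genes 16.1% and 15.5%), and 51 and 30 in ΔLEO1 cells (12.1% and 15.5%).

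The genes with the largest serum changes included some that were also called between genotypes and others that were not. FSTL5 and NDNF rose most in the wild type, by 4.49 ± 0.62 and 4.22 ± 0.61 log2 units (adjusted p = 1.41e-10 and 8.67e-10). In ΔLEO1 cells FSTL5 rose by 3.51 ± 0.66 (adjusted p = 8.71e-06), while NDNF held 1 to 4 counts per library, with a ratio of 2.92 between its summed levels in 0.1% and 10% serum (exact 95% interval 0.667 to 17.5, counting error only). SLC7A11, the cystine importer, fell in both genotypes, from 103, 106 and 72.4 CPM to 23.3, 19.1 and 66.0 CPM in the wild type and from 138, 164 and 117 CPM to 24.2, 20.3 and 81.5 CPM in ΔLEO1 cells, with the highest-numbered libraries far above the others in 0.1% serum. PKD2, the polycystin-2 channel, fell in the wild type by 2.60 ± 0.50 (adjusted p = 1.00e-05), and GUCY1A1, a subunit of the nitric oxide receptor, by 2.87 ± 0.55 (adjusted p = 1.25e-05). In ΔLEO1 cells ANKRD37 fell by 2.81 ± 0.55 and the DNA glycosylase gene NEIL3 by 2.58 ± 0.54 (adjusted p = 3.31e-05 and 0.000131).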

How the data were processed

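Poly(A) RNA of 12 libraries was analysed (3 per group), prepared by the authors with a stranded kit and sequenced from both ends in reads of 58 bases. Per the labels and the submitters' processing notes, bcl2fastq 2.20.0.422, STAR 2.7.10a and featureCounts 1.5.1 were used, and the deposited files hold the raw counts of 60671 genes and 92 ERCC transcripts. The STAR version differs between these notes and the study's methods, and the annotation release and the strand setting are not given in the sources used here. Positions came from GENCODE on GRCh38 (58453 identifiers matched) and symbols from a table of gene names (42020 matched, 244 of the 249 genes).

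The 13236 genes past 1 CPM in at least 3 libraries were fitted with edgeR 4.0.16 (limma 3.58.1, R 4.3.3) by the quasi-likelihood F test, two-sided, over 4 groups, with library size set to the ERCC total times the TMM factor of the ERCC transcripts, and p-values were adjusted over all tested genes by the method of Benjamini and Hochberg. The SE printed with a fitted change is the size of that change divided by the square root of its F statistic. Depth ranged from 26240632 to 45315560 gene counts per library, and intervals and floors (3 counts per library) cover counting error only. Where libraries held 3 counts or fewer, the size of a fitted change depends on the prior count, and for some genes ratios of counts with exact intervals, or bounds, are given beside or in place of it. Medians over the distal 4q genes are descriptions. The members, role lists and tests were chosen with earlier results of these data known.

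Named genes were the 6 called genes with the largest change each way per serum (symbol, mean of 10 CPM or more in a group, no overlap), 3 each way per genotype for serum, up to 6 called in the interaction, the 2 most abundant of each role list, 3 abundant genes within 0.1 of the median, genes next to the limits, and LEO1. CFI, HAND2, HAND2-AS1, ANK2, SLC25A4, CFAP97, HERC5, CTSO, HPSE, GPAT3, SMAD1, C4orf54, RPL7AP28, AGA-DT, NDNF in 10% serum and the interaction genes were named after their values were seen.

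Alternatives were the likelihood ratio test, DESeq2 1.42.0, ERCC totals without TMM, TMM on the genes, DESeq2's size factors, other filters and thresholds, only the groups compared, libraries left out or summed, and other windows. The code of the fit was checked on simulated counts, drawn independently for each library with the same dispersion for every gene. They lack the similar pairs and outlying libraries of the real groups, so nothing is read from them about the calls. Python 3.11.15, pandas 2.3.3, numpy 2.4.6, scipy 1.17.1 and matplotlib 3.10.9 were used. ChIP data were not analysed here, and the values of 1 called gene are not reported here.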

Additional observations from a re-analysis of the deposited data

Results flagged for a closer look

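For 8 distal 4q genes a difference between the sera in the change of ΔLEO1 against wild-type cells was called with TMM on the genes. The test was the interaction in edgeR's quasi-likelihood fit. None was called on the ERCC scale, where the smallest adjusted p was 0.735, for GASK1B. The difference, given first with TMM on the genes, is the log2 change in 0.1% serum less that in 10% serum. It was −1.96 for HERC5 (−0.79 to −2.75, adjusted p = 0.0133), −1.29 for ARHGAP24 (0.90 to −0.39, adjusted p = 0.00214), −1.10 for ARSJ (0.67 to −0.43, adjusted p = 0.0150), −1.10 for VEGFC (1.05 to −0.04, adjusted p = 0.0432) and −0.65 for ZNF330 (0.14 to −0.51, adjusted p = 0.0313). It was 1.00 for CYP4V2 (−2.47 to −1.47, adjusted p = 0.0445), 1.52 for EDNRA (−3.23 to −1.71, adjusted p = 0.0415) and 2.82 for GASK1B (−8.13 to −5.31, adjusted p = 0.0146), the last at 2 or 3 counts per ΔLEO1 library in 10% serum.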

How the results depend on the processing

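The downward median kept its sign under every alternative tried. With 1 library left out it ran from −0.40 to −0.35 in 10% serum and from −0.55 to −0.40 in 0.1% serum. In 10% serum it was −0.2989 over genes with a mean of 10 CPM or more, −0.3438 over genes past 1 CPM in 3 libraries of each genotype and −0.2359 over genes within 1 log2 unit. The highest window median turned positive with windows of 5 Mb (0.18 and 0.10) and with running medians of 21 genes in 10% serum (0.0318).

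Counts of called genes moved with the scaling and with the libraries used. TMM on the genes, and DESeq2 size factors on the genes, gave 105 and 103 lower and 18 and 19 higher in 10% serum, 131 and 130 lower and 10 and 10 higher in 0.1% serum, 44 and 44 lower and 34 and 34 higher for serum in the wild type, 51 and 51 lower and 30 and 30 higher for serum in ΔLEO1 cells, and 8 and 8 in the interaction. Without the 4 libraries that stand apart, 102 were lower and 3 higher in 0.1% serum, 170 lower for serum in the wild type, 228 lower for serum in ΔLEO1 cells and 2 in the interaction. With the 2 similar libraries of each group summed, 11 were lower and 3 higher in 10% serum, 8 and 3 in 0.1% serum, 6 and 3 for serum in the wild type, and 2 and 1 for serum in ΔLEO1 cells. Fits to the 2 groups compared gave 17 higher in 10% serum, 3 higher in 0.1% serum, 160 lower for serum in the wild type and 23 lower for serum in ΔLEO1 cells. At an adjusted p under 0.01, 6 were higher in 10% serum, and 37 and 35 lower for serum in the wild type and in ΔLEO1 cells. Without the filter 69 were lower for serum in ΔLEO1 cells. The cause was not tested. Except for TMM on the genes, shares of all tested genes are not given for these settings or for libraries left out below. Nothing particular to distal 4q is read from these counts.

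Leaving out 1 library gave 15 to 28 lower and 5 to 17 higher in 10% serum, 11 (without ΔLEO1 library 10) to 63 (without ΔLEO1 library 12) lower and 2 to 12 higher in 0.1% serum, 24 to 162 lower and 5 to 6 higher for serum in the wild type, 15 to 223 lower and 2 to 4 higher for serum in ΔLEO1 cells, and 0 to 1 in the interaction. Of 418 alternative values for the genes named by the size of their change, 354 kept direction and call, 64 lost the call and 0 reversed. No paired analysis was possible because the libraries are numbered 1 to 12 and no number occurs in 2 groups. At 0 to 3 counts per library, counting error limits how well the size of a change is known.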
